A study of Mus musculus with 14 samples.

Results

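Immediate early response genes are the genes whose transcripts appear within minutes of a stimulus, before new protein is made. The 10 described here, Fos, Fosb, Jun, Junb, Egr1, Egr2, Ier2, Atf3, Nr4a1 and Dusp1, were chosen by symbol as early genes that stimulation or handling of cells is known to raise, out of 49315 genes in the count table. All 10 passed the filter on low counts that left 15700 genes for testing. Their messenger RNA was measured by bulk RNA-seq in 14 cultures of primary microglia, 7 from TIMP2 knockout (KO) and 7 from wild-type (WT) mice of a C57BL/6 background in the labels, given as C57Bl/6J in the methods. Each culture was a pool of 5 pups of mixed sex aged 6 to 7 postnatal days. The KO is a global deletion of Timp2, the gene for a secreted inhibitor of metalloproteinases, so that every cell of the pups lacks the protein and the cultured microglia were not its only target. The microglia were isolated from forebrain with CD11b beads, kept in culture, and lifted with trypsin before freezing and RNA extraction, steps that both genotypes shared. Replicate numbers 1 to 7 were given to both genotypes as biological replicates, and the labels do not say what a shared number stands for.

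Early genes are switched on by transcription factors that already wait in the cell, chiefly CREB, SRF with its ternary complex partners and NF-kB, once MAP kinases or calcium signalling activate them. FOS and FOSB pair with JUN or JUNB to form the AP-1 transcription factor, and EGR1, EGR2, ATF3 and the orphan nuclear receptor NR4A1 are transcription factors in their own right. DUSP1 is a phosphatase that switches MAP kinases off again, and IER2 is a small nuclear protein. In microglia the same genes are known to respond to tissue dissociation, adhesion and inflammatory stimuli, and many of their messages decay quickly.

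Total counts ranged from 38875344 to 48070236 per library, and Fosb had the fewest reads of the members, 46 to 651 per library, against at least 355 for each other member. Levels are given as CPM, counts scaled to the size of each library, with the SD over the 7 cultures of a genotype. Timp2 stood at 122 ± 3.14 CPM in the KO and at 464 ± 36.8 CPM in WT cultures (log2 fold change -1.92, edgeR adjusted p = 1.53e-12), the direction the labels give, and the groups did not overlap. Microglia markers summed to between 10630 and 13580 CPM in every library. Astrocyte markers summed to 30.6 to 146 CPM in KO and 35.2 to 276 CPM in WT, neuron markers to 18.8 to 41.3 and 23.2 to 48.9 CPM, and oligodendrocyte lineage markers to 73.2 to 115 and 74.3 to 133 CPM. In bulk RNA, fewer cells that express a gene and less message per cell cannot be told apart.

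Fos, Fosb, Junb, Nr4a1 and Dusp1 are the members that varied most between cultures and varied together, and the DNA upstream of their start sites is shown because early genes are classically read through short elements there. RefSeq promoters (GRCm38.p6) matched 8 of the 10 members, all but Egr1 and Ier2. Each line runs 5′ to 3′ from 250 bases upstream of the start site and stops where an annotated exon begins. Capitals mark the short CRE element TGACG, or CGTCA where it lies on the other strand, the full CRE TGACGTCA, and the TATA box TATAAA.
Fos (chr12:85473640-85473889, plus strand): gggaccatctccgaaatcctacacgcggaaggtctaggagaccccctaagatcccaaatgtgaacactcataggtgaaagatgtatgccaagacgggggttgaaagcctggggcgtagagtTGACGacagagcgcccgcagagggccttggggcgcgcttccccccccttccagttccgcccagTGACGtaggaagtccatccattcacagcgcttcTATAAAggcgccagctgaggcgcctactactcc
Fosb (chr7:19310052-19310295, minus strand): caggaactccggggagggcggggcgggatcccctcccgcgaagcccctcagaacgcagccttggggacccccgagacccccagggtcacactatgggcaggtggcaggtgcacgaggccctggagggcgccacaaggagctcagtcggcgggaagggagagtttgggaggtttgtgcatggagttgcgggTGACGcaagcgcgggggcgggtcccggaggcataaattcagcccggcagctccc
Junb (chr8:84978749-84978998, minus strand): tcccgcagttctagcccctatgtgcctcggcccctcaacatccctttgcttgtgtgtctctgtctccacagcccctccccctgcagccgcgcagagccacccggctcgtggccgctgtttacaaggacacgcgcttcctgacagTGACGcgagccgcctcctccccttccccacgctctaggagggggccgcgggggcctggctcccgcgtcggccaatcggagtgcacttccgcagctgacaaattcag
Nr4a1 (chr15:101266596-101266845, plus strand): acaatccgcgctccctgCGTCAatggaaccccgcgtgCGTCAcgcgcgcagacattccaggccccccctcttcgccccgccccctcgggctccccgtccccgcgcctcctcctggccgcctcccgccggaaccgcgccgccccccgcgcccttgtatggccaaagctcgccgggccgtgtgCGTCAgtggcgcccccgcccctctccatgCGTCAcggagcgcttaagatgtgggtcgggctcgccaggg
Dusp1 (chr17:26508520-26508722, minus strand): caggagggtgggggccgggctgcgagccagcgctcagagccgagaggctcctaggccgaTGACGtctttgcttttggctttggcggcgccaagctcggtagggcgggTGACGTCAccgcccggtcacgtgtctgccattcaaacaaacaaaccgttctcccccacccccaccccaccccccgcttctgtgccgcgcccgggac

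The Fos, Fosb and Junb windows lie directly upstream of their genes, while the Nr4a1 and Dusp1 windows lie inside the annotated span of those genes because longer transcripts start further upstream. The short TGACG element, part of the element that CREB and ATF proteins bind, was found in the 250 upstream bases of 7 of the 8 matched members, Jun being the exception, and in 17.8% of all 32851 promoters. Fos held it at 129 and 66 bases before the start site, Junb at 106, Fosb at 60, and Nr4a1 at 4 places (positions -233, -213, -69 and -40). The full CRE occurred in 1 member, Dusp1, at position -143, where it also counts as TGACG on both strands, against 1.55% of all promoters. The AP-1 element TGANTCA was in no matched member and in 6.75% of promoters, and the EGR element GCGNGGGCG was in 2, Fosb at -50 and Nr4a1 at -60, against 4.70%. TATAAA was found for 1 member, Fos, at -33, against 12.4%, and a CArG box, the SRF element, for 1 member, Egr2, against 1.47%. Both strands of these 250 bases were searched and DNA further upstream was not, so an element missing here may lie outside the window. A match is a description of letters, not a bound site. The counts are of members and the shares are of promoters, so they are not like for like. The 8 matched members have 12 promoters, and a member counts if any of its promoters held the element. Egr2 has several promoters, some with overlapping windows.

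The members spanned a wide range of levels. Per length of transcript (RPKM, reads scaled to library size and to exon length, mean ± SD over the 14 libraries), Atf3 was highest at 130 ± 15, followed by Junb at 115 ± 51.9 and Fos at 93.1 ± 28.8. Dusp1 and Jun each averaged 55.7 RPKM, Ier2 31.9, Egr1 26.5, Nr4a1 7.27, Egr2 3.63 and Fosb 0.887. The median tested gene stood at 3.35 RPKM, so that 9 of the 10 lay above it. The order of neighbours held in all 14 libraries for Fos over Dusp1, Jun over Ier2, Egr1 over Nr4a1 and Egr2 over Fosb. It did not separate Atf3 from Junb, where Atf3 was higher in 9 of 14 libraries, or Dusp1 from Jun, where Dusp1 was higher in 6. Together the members took 0.0917% (KO replicate 5) to 0.222% (KO replicate 4) of all counts.

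Fosb varied most between cultures. Its level ran from 1.16 through a median of 6.21 to 12.9 CPM in KO and from 1.74 through 4.97 to 15.6 CPM in WT, a 13.4-fold range over the 14 libraries. Libraries numbered 4 were highest in both genotypes, and those numbered 1, 5 and 6 lay between 1.16 and 2.21 CPM. Dusp1 ran from 58.2 through 187 to 423 CPM in KO and from 82.3 through 172 to 403 CPM in WT, a 7.27-fold range. Nr4a1 ran from 9.06 through 19.8 to 61.6 CPM in KO and from 10.0 through 18.7 to 64.4 CPM in WT, a 7.10-fold range. Both genes were highest in the pair of libraries numbered 4 and low in those numbered 1, 5 and 6.

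Junb and Fos, the AP-1 partners with high levels, had narrower ranges. Junb lay at 153, 229 and 489 CPM (lowest, median and highest) in KO and at 163, 220 and 531 CPM in WT, a 3.46-fold range. Fos lay at 108, 217 and 347 CPM in KO and at 147, 206 and 309 CPM in WT, a 3.20-fold range. Libraries numbered 4 again led in both genotypes, followed in KO by number 7. Egr1 lay at 94.1, 105 and 242 CPM in KO and at 83.0, 117 and 141 CPM in WT, and the 242 CPM of KO replicate 4 stood apart from the other 13 libraries, none of which was above 141 CPM. Egr2 lay at 9.19, 10.9 and 19.6 CPM in KO and at 8.32, 11.9 and 14.8 CPM in WT, with libraries numbered 1 highest in both. The 3 remaining genes varied less. Ier2 lay at 38.7, 46.7 and 72.8 CPM in KO and at 38.6, 47.4 and 56.3 CPM in WT. Jun lay at 151, 169 and 262 CPM in KO and at 153, 169 and 210 CPM in WT. Atf3, which integrates stress signals, lay at 223, 287 and 342 CPM in KO and at 239, 277 and 309 CPM in WT, a 1.53-fold range.

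**Figure D1:**
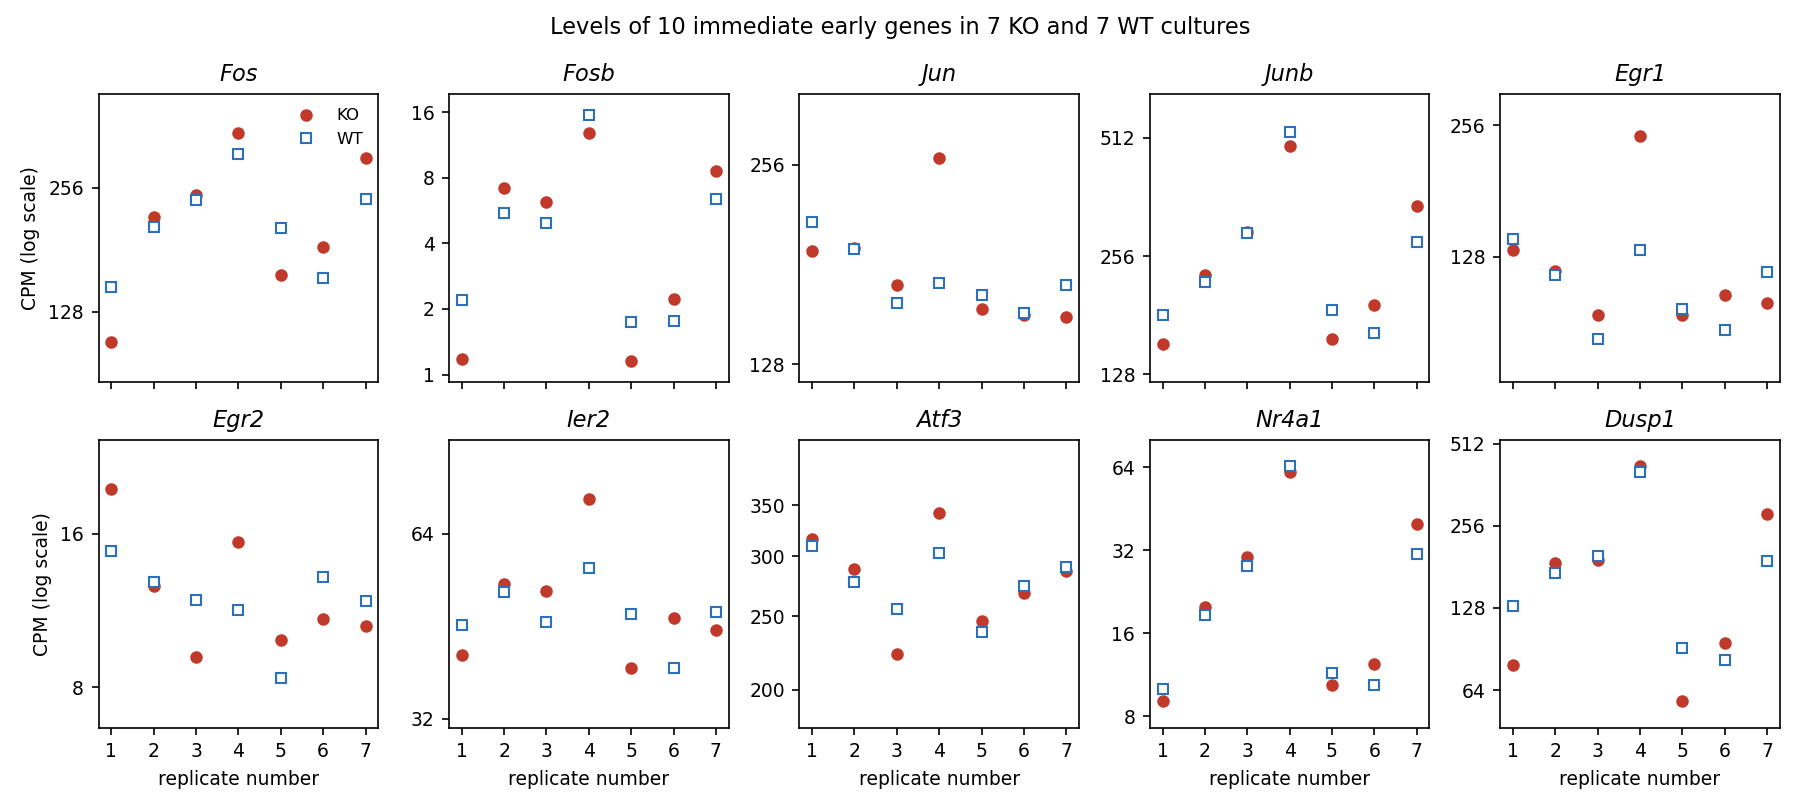
Level of each member in CPM (y axis, log scale, a different range per gene) against replicate number (x axis) for 7 KO cultures (filled circles) and 7 WT cultures (open squares). Fos, Fosb, Junb, Nr4a1 and Dusp1 peak at number 4 in both genotypes, and Nr4a1 reaches 61.6 CPM in KO and 64.4 CPM in WT there.

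Set against all tested genes, the spread of most members was large. The coefficient of variation of CPM had a median over members of 39.3% in KO and 22.9% in WT, where all tested genes had medians of 10.3% and 9.47%, and 9 of the 10 members were above both of those medians. The biological coefficient of variation that edgeR estimates, the spread left after counting error, had a median of 0.279 over members and 0.109 over all tested genes. Only 0.873% of tested genes had a higher value than Fosb, 2.25% than Nr4a1 and 3.46% than Dusp1, while 48.6% had a higher value than Atf3. The highest of the 14 libraries was numbered 4 for 9 of the 10 members, 6 of them in KO and 3 in WT, and was KO replicate 1 for Egr2. Within WT alone the highest library was numbered 4 for 6 members and 1 for the other 4, which were Jun, Egr1, Egr2 and Atf3.

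Levels in same-numbered KO and WT cultures were then set side by side, a comparison added after the values had been seen. For Nr4a1 the log2 CPM of the 7 KO libraries followed that of the same-numbered WT libraries with Pearson's r = 0.984 (exact permutation of the 7 pairings, two-sided p = 0.000595, where 0.000198 is the smallest possible) and Spearman's rho = 0.964 (exact p = 0.00278), and r was 0.979 without the 2 numbers farthest from the median. Nr4a1 stood at 61.6 and 64.4 CPM in the libraries numbered 4, at 39.7 and 31.1 in those numbered 7, at 30.1 and 28.1 in those numbered 3, and at 9.06 and 10.0 in those numbered 1 (KO and WT). On the log2 scale its mean of KO and WT had an SD of 1.02 over the 7 numbers, while the KO and WT cultures of one number differed by a median of 0.14. The same comparison gave r = 0.936 for Junb (exact p = 0.00278), 0.932 for Fosb (exact p = 0.00258), 0.907 for Dusp1 (exact p = 0.00575), 0.880 for Fos (exact p = 0.0113) and 0.875 for Atf3 (exact p = 0.0113), with rho from 0.857 to 0.964. Without the 2 farthest numbers r stayed between 0.849 and 0.975 for Junb, Fosb, Dusp1 and Atf3 and fell to 0.654 for Fos. Egr1 (r = 0.663, exact p = 0.0712), Ier2 (0.613, exact p = 0.149), Egr2 (0.549, exact p = 0.202) and Jun (0.381, exact p = 0.400) did not pass an unadjusted threshold of 0.05. These values turned on the libraries numbered 4 for 2 of them. Without those libraries r rose to 0.839 for Jun, whose level at number 4 was 262 CPM in KO and 170 CPM in WT, and fell to 0.134 for Ier2, at 72.8 and 56.3 CPM.

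After Benjamini-Hochberg adjustment over all 15700 genes no gene passed (0.0% called), the members included, with the lowest adjusted p of a member at 0.273 for Nr4a1. With 7 numbers the smallest possible exact p is 0.000198, so this adjustment can hardly be passed. In simulated data of 2200 genes, 41 of 200 planted genes with a median r of 0.91 were recovered. That no gene passed does not decide whether levels followed the number. At an unadjusted exact p under 0.05 with a positive r, 6 of the 10 members passed, against 8.37% of all tested genes. Fos, Fosb, Junb, Nr4a1 and Dusp1, all among these 6, varied together, so they are not separate observations. The median r was 0.878 over the members and 0.244 over all tested genes, and r was above 0.9 for 4 members against 263 of 15700 genes. Leaving out each number in turn left the members' median r between 0.836 and 0.905. The same comparison was made for 7 features of the libraries. The summed microglia markers gave r = 0.869 (exact permutation p = 0.0167, adjusted over the 7 features 0.117) and rho = 0.786 (exact p = 0.0480, adjusted 0.336), and r = 0.582 without the 2 farthest numbers, with 10997 and 10628 CPM in the KO and WT libraries numbered 1 and 13467 and 12921 CPM in those numbered 5. Total count (r = -0.31), the mitochondrial share (0.19), and the summed astrocyte (-0.21), neuron (0.49), oligodendrocyte lineage (-0.27) and heat shock genes (0.29) had adjusted exact p-values of 0.678. The mitochondrial share gave r = 0.910 without the 2 farthest numbers. In the libraries numbered 4 the astrocyte markers summed to 41.0 CPM in KO and 276 CPM in WT, and the microglia markers to 11921 and 12030 CPM. The labels name no batch for any library, and the part of a shared batch or culture day in these values was not tested.

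**Figure D2:**
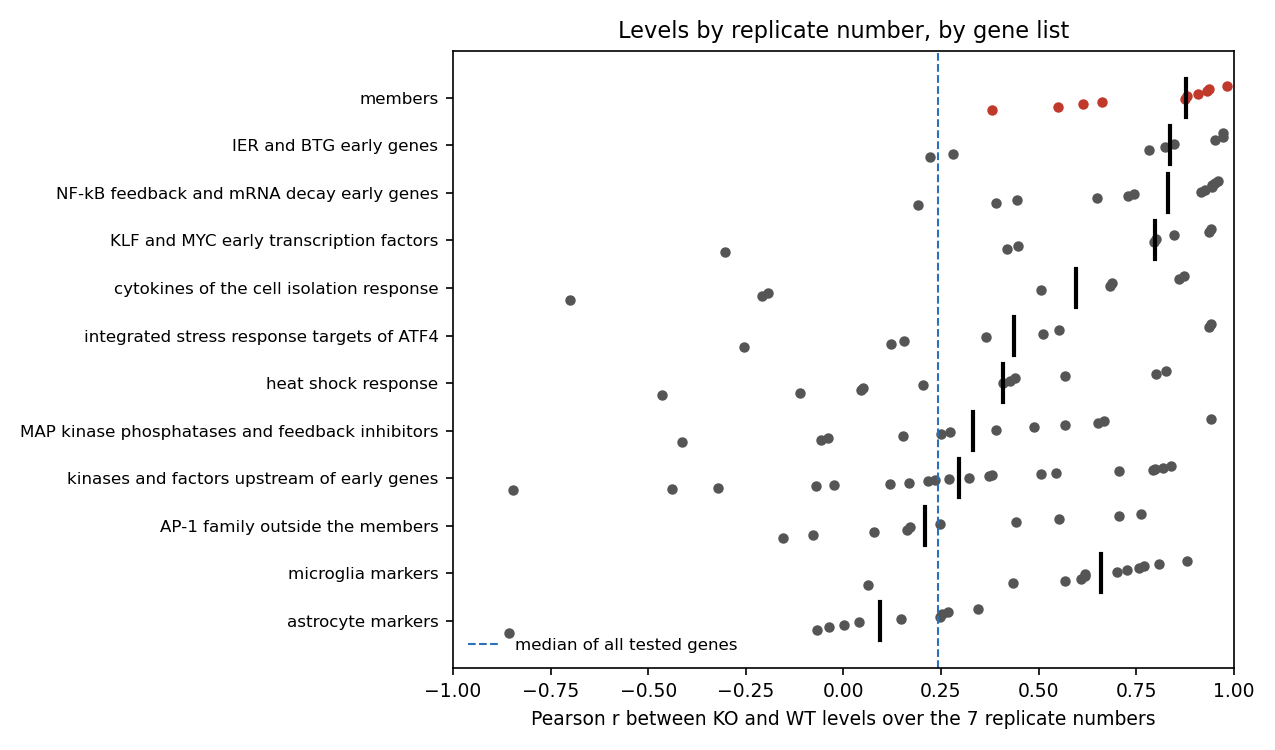
Pearson r between KO and WT log2 CPM over the 7 replicate numbers (x axis) for each gene (points) of the members and of 11 other gene lists (rows), with the list median as a black bar and the median of all tested genes, 0.244, as a dashed line. Of the members, 6 lie at 0.875 or above, and the IER and BTG list has a median of 0.836.

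With each gene centred on its genotype mean, 41 of the 45 pairs of members had a positive Pearson r, and 20 passed at an adjusted p under 0.05 (100000 permutations within genotype, adjusted over the 45 pairs; 19 by Spearman's rho on ranks within genotype), and 13 without both libraries numbered 4. No share over pairs of other genes is given here, so whether these counts are unusual was not tested. The p-values treat the 14 libraries as independent, although levels of several members were alike in same-numbered libraries. The highest was Junb with Nr4a1 (r = 0.986, rho = 0.964, adjusted permutation p = 5e-05, the smallest these permutations give; r = 0.994 in KO and 0.978 in WT). Next was Fosb with Dusp1 (r = 0.974, rho = 0.911; r = 0.969 without the 2 farthest libraries).

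The 10 pairs among Fos, Fosb, Junb, Nr4a1 and Dusp1, grouped after their values were seen and so given with no test, had r from 0.880 to 0.986, from 0.907 to 0.994 in KO alone and from 0.832 to 0.978 in WT alone. They kept r from 0.809 to 0.984 without both libraries numbered 4. The differences between same-numbered KO and WT libraries, from which whatever a number shares is removed, had r from 0.843 to 0.992 within these pairs, while the median over all 45 pairs was 0.29 and 3 of the 45 passed at an adjusted exact p under 0.05. The 6 pairs among Jun, Egr1, Egr2 and Atf3 had r from 0.579 to 0.907, led by Jun with Egr1 (adjusted permutation p = 0.000777) and Egr1 with Atf3 (r = 0.817, adjusted permutation p = 0.00169), and r from 0.523 to 0.850 without the libraries numbered 4. In the differences by number, r within these 6 pairs ran from 0.283 for Egr1 with Egr2 to 0.962 for Jun with Egr1. It was 0.350 for Jun with Egr2, 0.401 for Egr1 with Atf3, 0.456 for Jun with Atf3 and 0.814 for Egr2 with Atf3. Between these sets, the 20 pairs had r from -0.37 to 0.51, and without the libraries numbered 4 from -0.65 to 0.10, with 16 of the 20 below 0. Ier2 had r from 0.743 to 0.811 with the genes of the Fos set, and r of 0.722 with Egr1, 0.686 with Jun, 0.371 with Atf3 and 0.060 with Egr2. Without the libraries numbered 4 its r was 0.537 to 0.725 with the Fos set, 0.361 with Jun, 0.204 with Egr1, -0.17 with Atf3 and -0.27 with Egr2.

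**Figure D3:**
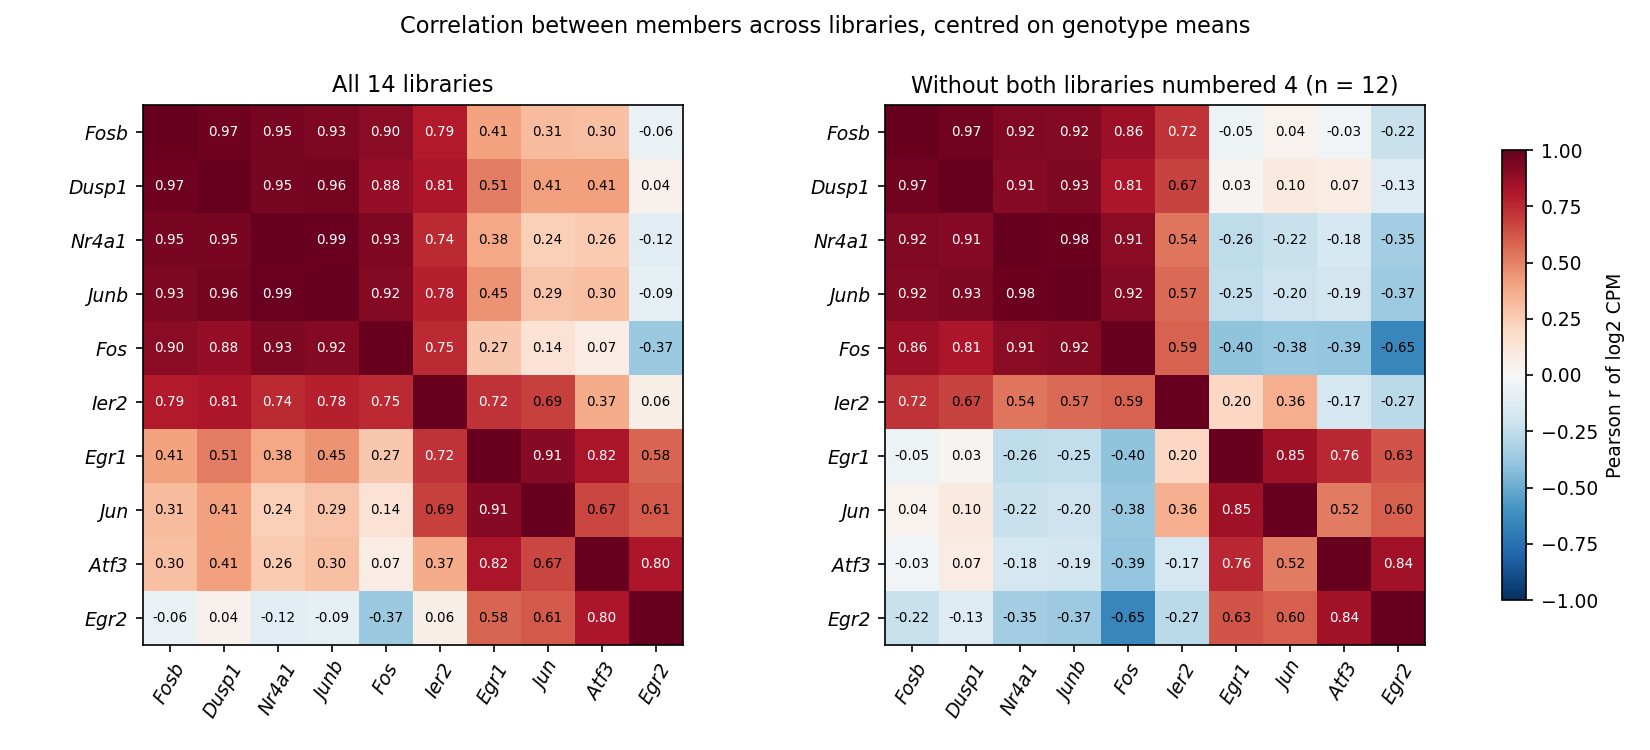
Pearson r between the log2 CPM of each pair of members (colour and printed value), each gene centred on its genotype mean, over all 14 libraries (left) and the 12 libraries left without those numbered 4 (right). Fosb, Dusp1, Nr4a1, Junb and Fos form a block with r of 0.880 or more on the left and 0.809 or more on the right, and Egr1, Jun, Atf3 and Egr2 a second one.

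Among 12641 tested genes with a mean of at least 1 CPM, those most like Fos, Fosb, Junb, Nr4a1 and Dusp1 over the 14 libraries were often other early genes. For all 10 members together the closest genes were 26 distinct genes, of which 10 were in the lists used here, 5 of them members. Junb was followed most closely by Osm (r = 0.989), a cytokine of the IL-6 family, Nr4a1 (0.986) and Socs3 (0.980), a feedback inhibitor of cytokine signalling. Nr4a1 was closest to Osm (0.988), Junb (0.986) and Btg2 (0.980). Fos was closest to Zfp36 (0.962), which encodes a protein that speeds the decay of short-lived messages, Btg2 (0.961) and Gm44428 (0.953). Fosb was closest to Dusp1 (0.974), Ier3 (0.960) and Nr4a1 (0.952), and Dusp1 to Fosb (0.974), Dusp2 (0.963) and Ier3 (0.962).

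The other set had different neighbours. Jun was closest to Wbp2 (0.946), Cers2 (0.934) and Anxa7 (0.921), and the genes close to Egr1 included Jun (0.907) and Tmem120a (0.890). Egr2 was closest to Pld3 (0.966), Dcbld2 (0.961) and Cyfip2 (0.958). Atf3 was closest to Abhd5 (0.940), Samd8 (0.914) and Dnmt3aos (0.913), and Ier2 to Tnfsf9 (0.945), Sertad2 (0.941) and H3f3b (0.921). These are correlations with no test, each the highest of many.

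Total count, the mitochondrial share, the astrocyte, neuron and heat shock sums of each library were compared with each member, 50 relations in all, and none passed at an adjusted permutation p under 0.05. The smallest adjusted p was 0.337, for the mitochondrial share of counts with Atf3 (r = 0.691, rho = 0.518, and r = 0.413 without the 2 farthest libraries) and with Egr2 (r = 0.669, rho = 0.411, and 0.435). The median r over members was 0.03 with total count, 0.28 with the summed astrocyte markers, 0.08 with the neuron markers and -0.39 with the heat shock genes.

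No member differed between KO and WT beyond the spread between cultures. Of all 15700 tested genes 3 passed at an edgeR adjusted p under 0.05 (0.0191%), and 0 of the 10 members did, nor did any at an unadjusted p under 0.05, by edgeR or by DESeq2. That unadjusted threshold was passed by 529 of all tested genes with edgeR and by 565 with DESeq2. The values of the genotypes overlapped for every member, and the share of all tested genes that overlap is not given here. Fos averaged 223 ± 82.8 CPM in KO and 214 ± 55.4 CPM in WT (log2 fold change 0.06, 95% interval -0.43 to 0.55, edgeR adjusted p = 0.982, exact permutation p = 0.983). Egr1, with the largest estimate, averaged 127 ± 52.6 and 111 ± 22.2 CPM (log2 fold change 0.20, interval -0.24 to 0.63, edgeR adjusted p = 0.943, exact permutation p = 0.589), and the estimate was -0.04 without KO replicate 4.

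The intervals, which are those of the fit on genotype alone, differed widely between members. Atf3 had the narrowest, with 281 ± 40.3 CPM in KO and 278 ± 25.2 CPM in WT (log2 fold change 0.02, interval -0.16 to 0.20). Jun averaged 182 ± 39.6 and 173 ± 20.1 CPM (0.07, interval -0.18 to 0.31) and Ier2 49.7 ± 11.5 and 47.5 ± 5.44 CPM (0.07, interval -0.19 to 0.33). Egr2 averaged 12.6 ± 3.72 and 12.0 ± 2.01 CPM (0.07, interval -0.28 to 0.42). Junb averaged 266 ± 121 and 265 ± 127 CPM, with an interval from -0.64 to 0.65.

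For the 3 most variable members the interval was the widest. Dusp1 averaged 188 ± 130 and 181 ± 108 CPM (log2 fold change 0.06, interval -0.88 to 0.99), Nr4a1 26.2 ± 19.3 and 24.9 ± 19.4 CPM (0.08, interval -0.99 to 1.14), and Fosb 5.63 ± 4.39 and 5.45 ± 4.86 CPM (0.05, interval -1.22 to 1.32). With the replicate number as a block these intervals were narrower, at -0.38 to 0.27 for Dusp1, -0.07 to 0.21 for Nr4a1 and -0.39 to 0.37 for Fosb. In the fit on genotype alone, all edgeR adjusted p-values of members were 0.943 or higher. The median log2 fold change was 0.06 over the members, with all 10 above 0, and 0.0016 over all tested genes, of which 7983 were above 0. The members varied together, so their signs are not separate observations. Without KO replicate 4 alone the median over members was -0.07, and Egr2 was the only member with an estimate above 0. Without both libraries numbered 4 the estimates of Jun, Egr2, Ier2 and Atf3 were below 0. Over all 14 libraries the difference of mean log2 CPM, which weighs every library alike, was below 0 for Fosb (-0.041), Junb (-0.00032) and Dusp1 (-0.063).

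**Figure D4:**
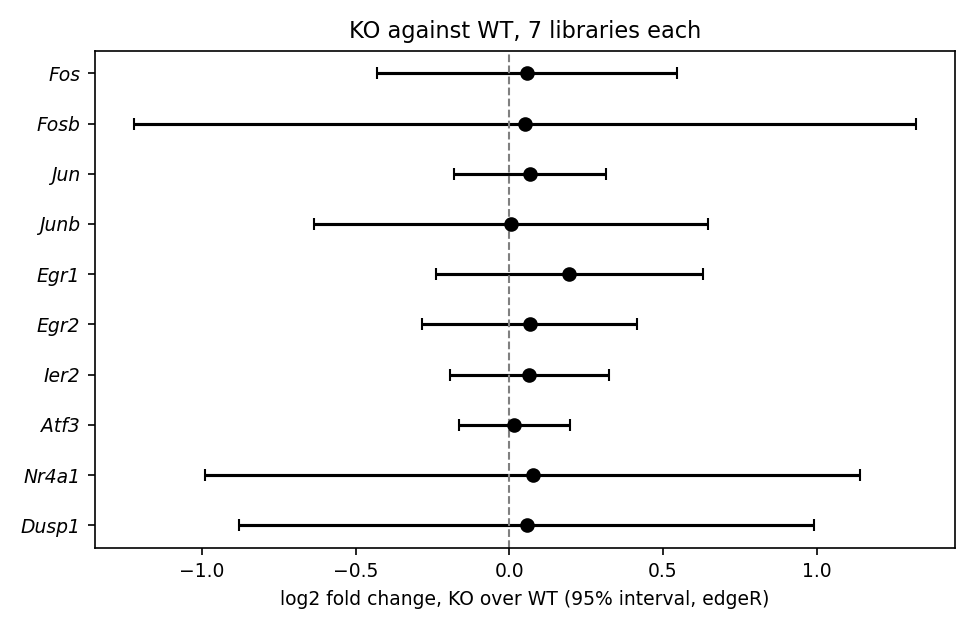
Log2 fold change of KO over WT (x axis) for each member (rows), 7 libraries per genotype. Points are the edgeR estimate of the fit on genotype alone, without the replicate block, and bars its 95% interval. Every interval crosses 0, from the widest for Fosb (-1.22 to 1.32) to the narrowest for Atf3 (-0.16 to 0.20).

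Other early genes of the same pathways behaved in part like the members. None of the 157 tested genes of 19 other lists passed between KO and WT by edgeR or DESeq2. Of them, 2 had an unadjusted edgeR p under 0.05, where 529 of all 15700 tested genes did. These 2 were Elk1 (15.8 ± 0.848 CPM in KO, 16.7 ± 0.581 in WT) and the astrocyte marker S100b (1.12 ± 0.412 and 1.89 ± 0.692). Over the replicate numbers, 6 of 8 IER and BTG early genes passed the unadjusted threshold with a positive r, 4 of 8 KLF and MYC transcription factors and 6 of 12 genes of NF-kB feedback and message decay, against the 8.37% of all tested genes. Ier3 (r = 0.973) stood at 34.3 and 33.4 CPM in the KO and WT libraries numbered 4 and at 8.29 and 9.27 CPM in those numbered 5, and Rgs1 (r = 0.960) at 345 and 375 CPM against 108 and 124 CPM. Both were chosen after their values were seen.

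Close relatives of the members passed at counts near the share of all tested genes, 8.37%. None of the 10 other AP-1 genes passed over the replicate numbers (median r 0.208), nor any of 3 EGR and NAB genes or of 2 NR4A relatives. Fosl2 (r = 0.706, exact permutation p = 0.0530) and Maff (r = 0.761, exact permutation p = 0.0637), both chosen after their values were seen, came close to the threshold. Of 12 MAP kinase phosphatases and feedback inhibitors 1 passed, Dusp2, at 23.0 and 20.9 CPM in the libraries numbered 4 and 1.63 and 2.44 CPM in those numbered 5. Kinases and factors upstream of early genes gave 3 of 20, targets of ATF4 2 of 8, heat shock genes 1 of 11, cytokines of the isolation response 2 of 8 and neuronal activity genes 0 of 5. Nr4a2 and Nr4a3 were low, at 2.48 ± 0.391 and 0.621 ± 0.260 CPM in KO. Microglia markers also gave 3 of 12, with a median r of 0.660, and neuron markers 3 of 8, while astrocyte markers gave 0 of 10 and oligodendrocyte lineage markers 0 of 7. Between genotypes, all 10 astrocyte, all 8 neuron and all 7 oligodendrocyte lineage markers had estimates below 0, with medians of -0.66, -0.36 and -0.39, and none of them passed. Border macrophage markers gave 1 of 4 over the numbers, vascular and fibroblast markers 2 of 7, and the 2 other leukocyte markers that could be tested gave 0, with Ly6g, Cd3e and Nkg7 below 0.1 CPM in every library.

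Annotation limits what a count means for some members. Jun overlaps Junos, Junb overlaps Prdx2 and Dusp1 overlaps Gm8225 and Ergic1 on the opposite strand, and the strand setting of the counting is not given in the sources used here, so reads of these pairs cannot be assigned with certainty. In the GRCm38 annotation (GENCODE M21) the members lie at chr12:85473890-85477273 (Fos), chr7:19302696-19310051 (Fosb), chr4:95049034-95052222 (Jun), chr8:84974484-84978718 (Junb), chr10:67535475-67542188 (Egr2), chr8:84661331-84662852 (Ier2), chr1:191170296-191218039 (Atf3), chr15:101254269-101274795 (Nr4a1) and chr17:26505590-26562128 (Dusp1), and their counts cover all annotated exons of each gene.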

How the data were processed

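Bulk RNA-seq was performed by the authors on polyadenylated RNA from 14 cultures of primary microglia, 7 KO and 7 WT. Per the submitters' processing notes, reads were trimmed with Trimmomatic 0.36, aligned with STAR 2.5.2b to GRCm38 and counted per gene with featureCounts of Subread 1.5.2. The deposited values are raw counts per gene, with no normalization by the authors. The annotation release and the strand setting are not given in the sources used here. The study's model held a batch term, but the labels name no batch, so none was fitted here.

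Genotype and replicate number were taken from the labels. Gene symbols came from the deposited table's identifiers and GENCODE M21, which matched 49056 of 49315 genes. Genes were kept by filterByExpr (minimum count 10, minimum total count 15), scaled by TMM and tested with edgeR 4.0.16 (quasi-likelihood, two-sided, genotype only), with Benjamini-Hochberg adjustment over 15700 genes and a threshold of 0.05. CPM are TMM-scaled, log2 CPM used a prior count of 1, and RPKM used the union of annotated exons. Each member was also tested by an exact permutation of log2 CPM. Total counts were 38875344 to 48070236 per library, and p-values measure the spread between these pooled cultures only.

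Alternatives were DESeq2's size factors, upper-quartile factors, no filter on low counts, DESeq2 1.42.0, the replicate number as a block, and leaving out each library. Scripts were tested on simulated data. The named genes were all 10 members, up to 4 genes of each other list with the smallest unadjusted p, and the 3 genes most correlated with each member, 1 of which is not reported here, and values of any other gene are said to be chosen later. The members, lists and tests were chosen with earlier results of these data known, and the comparison by replicate number and that of library features were added after the values were seen.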

Additional observations from a re-analysis of the deposited data

Results flagged for a closer look

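Egr1 in KO replicate 4, at 242 CPM, lay far from the other 6 KO cultures (94.1 to 133 CPM). Its gap to the next library took up 0.634 of the range of the 7 log2 values, above Dixon's limit for 7 values. The 10 members in both genotypes make 20 groups, of which chance flags about 1 in 20, and this was the 1 group past the limit.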

How the results depend on the processing

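Under 21 settings, none of the 10 members passed the threshold between KO and WT, and the smallest adjusted p of any was 0.747. Of 210 member estimates, 46 had the opposite sign to the estimate reported and none of these passed. Over all genes 3 passed, 14 with DESeq2, 27 with DESeq2 and the replicate block, and 3 to 4 when each library was left out in turn. With upper-quartile factors the log2 fold change of Junb was -0.015. With the replicate block in edgeR it was -0.010 for Fosb and -0.056 for Dusp1, and with DESeq2 and the block -0.014 for Fosb, -0.0029 for Junb and -0.064 for Dusp1. Without both libraries numbered 4, chosen after the data were seen, it was -0.049 for Jun, -0.0028 for Egr2, -0.0055 for Ier2 and -0.014 for Atf3. Leaving out each library in turn gave -0.082 to 0.18 for Fos, -0.30 to 0.58 for Fosb, -0.045 to 0.12 for Jun, -0.21 to 0.27 for Junb, -0.041 to 0.26 for Egr1, -0.076 to 0.13 for Egr2, -0.051 to 0.12 for Ier2, -0.035 to 0.064 for Atf3, -0.29 to 0.51 for Nr4a1 and -0.28 to 0.38 for Dusp1. The median over members ran from -0.07 to 0.20.

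Of the 45 pairs, 20 passed in the correlation, 16 to 22 when each library was left out, 13 without both libraries numbered 4, and 3 when differences between same-numbered libraries replaced the 14 values (replicate block, 7 points). The smaller number of points is part of both changes, and any other cause was not tested.

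Over all tested genes, same-numbered libraries did not deviate together by rule: the correlation of their deviations ran from -0.20 to 0.74 with a mean of 0.10, it was above 0.1 for 3 of the 7 pairs, and 3 of the 14 libraries correlated best with the library of their own number. The numbers were therefore not taken as pairs in the reported fit, although levels of several members were alike in same-numbered libraries. With the replicate block, edgeR called 3 genes and no member (adjusted p 0.796 or higher), and the standard error fell for all 10 members, from 0.50 to 0.0631 for Nr4a1, from 0.596 to 0.170 for Fosb and from 0.301 to 0.0698 for Junb, a median of 2.31 times against 1.11 over all tested genes. Its 95% intervals were -0.07 to 0.21 for Nr4a1, -0.16 to 0.16 for Junb and -0.39 to 0.37 for Fosb, narrower than those reported. Fosb had the fewest reads of the members, 46 in 1 library, and the part of depth in its interval was not tested.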
